A study of Homo sapiens with 14 samples.

Results

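Steady progesterone receptor (PR) regions that carried POLR3A after progesterone (P4) and not after ethanol are described here. They were defined by overlap of at least 1 bp among 4 deposited peak lists: a PR P4 region on chromosomes 1 to 22 or X had to meet regions in the lists of PR under vehicle and POLR3A under P4, and none in that of POLR3A under vehicle. The rule found 4551 regions, which are 4.08% of the 111515 PR P4 regions. They made up 15.8% of the 28783 PR regions found under both treatments, called steady regions below, and that share is fixed by the rule. The remaining steady regions comprised 16103 without POLR3A in either list, 6218 with POLR3A in both lists and 1911 with POLR3A under vehicle alone. The 2.38 P4-alone regions per vehicle-alone region depend on the longer POLR3A P4 list: with POLR3A lists of equal length there were 3110 and 2653, 1.17 to 1.

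The data are chromatin immunoprecipitation sequencing (ChIP-seq) of T47D, an established breast cancer line with oestrogen and progesterone receptors, given ethanol vehicle or P4 for 1 h. Antibodies were against PR or against POLR3A, and each of the 4 groups had 3 replicate libraries, with 1 pooled input library per treatment. Each group has 1 peak list, in which its 3 replicates cannot be told apart, so no value has a spread between replicates and no test between treatments was possible. The cells are 1 line, whether the replicates were separate cultures is not given in the sources used here, and without read counts the depth of the libraries is unknown. The fold enrichment and the −log10 q-value of every region are the authors' values, and they rank regions only within their own list. Intervals are 95% Wilson intervals that cover counting error over regions only, and regions are not replicates of a treatment.

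PR is a nuclear receptor that binds DNA as a dimer when it holds progesterone. Its best known target sequence is an inverted repeat of a hexamer, shared with the glucocorticoid, androgen and mineralocorticoid receptors. POLR3A is the largest subunit of RNA polymerase III (Pol III), which transcribes tRNA genes, 5S ribosomal RNA and other short noncoding RNAs, mostly from promoters inside the gene.

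Promoter sequences are shown first, because they let the position of the PR summit be read against the known receptor motif. RefSeq promoter windows of GRCh38.p14 (250 bases before and 50 after a gene start) were used, and those on chromosomes 8 and 18 were left out of this count. On the other chromosomes, 78 of the P4-alone regions had their PR summit in the 250 bases before a protein-coding start. The search reached 60 bases to either side of the summit, but was cut off at the ends of these 250 bases, so some stretches are shorter. In the stretches read, 17 of the 78 held the receptor palindrome, GNACA followed by any 3 bases and TGTNC, with at most 1 of its 8 fixed letters changed. The centre of the match lay at a median of 16 bp from the summit and at most 46 bp away. Such stretches were not counted at other PR regions or over all promoters, so 17 of 78 has no reference share. Whole windows are compared with other classes below. The 8 with the match within 11 bp of the summit are printed 5′ to 3′ on the strand of the gene, with the matching 13 bases in capitals.
RFESD, chr5:95646759-95646878, plus strand: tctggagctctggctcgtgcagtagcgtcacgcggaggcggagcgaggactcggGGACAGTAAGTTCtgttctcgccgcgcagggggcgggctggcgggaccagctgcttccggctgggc
SELENOS, chr15:101277588-101277708, minus strand: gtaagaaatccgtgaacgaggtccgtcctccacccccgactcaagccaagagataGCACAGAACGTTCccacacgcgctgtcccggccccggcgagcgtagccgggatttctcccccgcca
DUSP6, chr12:89352538-89352658, minus strand: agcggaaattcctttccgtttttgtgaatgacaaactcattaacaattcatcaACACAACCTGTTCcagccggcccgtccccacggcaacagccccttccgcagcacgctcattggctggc
RAB17, chr2:237590865-237590984, minus strand: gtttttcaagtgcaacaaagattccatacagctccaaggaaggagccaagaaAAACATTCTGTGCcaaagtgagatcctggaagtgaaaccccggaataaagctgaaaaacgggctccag
ANKRD24, chr19:4183945-4184065, plus strand: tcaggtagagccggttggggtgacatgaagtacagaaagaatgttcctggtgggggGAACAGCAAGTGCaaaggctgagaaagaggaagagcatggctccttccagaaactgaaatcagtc
COX17, chr3:119677407-119677473, minus strand: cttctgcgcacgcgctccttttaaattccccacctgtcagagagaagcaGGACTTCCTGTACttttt
RNF41, chr12:56222070-56222190, minus strand: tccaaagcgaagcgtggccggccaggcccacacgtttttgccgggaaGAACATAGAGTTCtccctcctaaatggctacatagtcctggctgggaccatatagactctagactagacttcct
SLC39A13, chr11:47407212-47407275, plus strand: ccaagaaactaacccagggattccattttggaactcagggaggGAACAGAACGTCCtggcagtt
For comparison, 3 stretches without such a match are printed in lower case. ZNF784, which encodes a zinc finger protein, had the strongest PR region of the 78. COX20 encodes an assembly factor of cytochrome c oxidase, and BRF1 encodes a subunit of the Pol III initiation factor TFIIIB.
ZNF784, chr19:55624739-55624816, minus strand: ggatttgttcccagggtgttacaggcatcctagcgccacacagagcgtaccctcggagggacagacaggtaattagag
COX20, chr1:244835443-244835563, plus strand: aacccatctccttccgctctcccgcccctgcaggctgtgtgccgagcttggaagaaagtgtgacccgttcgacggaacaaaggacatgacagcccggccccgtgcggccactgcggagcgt
BRF1, chr14:105315590-105315686, minus strand: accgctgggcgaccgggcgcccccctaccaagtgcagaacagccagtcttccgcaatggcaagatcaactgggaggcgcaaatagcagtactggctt
The matches went with strong PR regions. Of the 39 regions with the higher PR P4 −log10 q, from 26.5 upwards, 15 held the palindrome with at most 1 change, and of the 39 weaker ones 2 did. At RFESD, which encodes a Rieske domain protein, the PR region had −log10 q 290 in the P4 list and 204 in the vehicle list, and the match was centred on the summit, at -60 bp from the start. The POLR3A region there had −log10 q 4.95, with its summit at -227 bp. At SELENOS, a selenoprotein of the endoplasmic reticulum, the PR values were 197 and 48.5, and the POLR3A value was 2.66. DUSP6, a phosphatase that inactivates ERK kinases, had PR values of 29.1 and 26.3 and a POLR3A value of 3.66. Its PR summit lay 1 bp from the centre of the match, at -97 bp from the start, and its POLR3A summit at -410 bp. At ZNF784, with no match in its shortened stretch, the PR values were 432 and 295 and the POLR3A value was 3.22. At BRF1, whose stretch held the hexamer AGAACA but no palindrome match, the PR values were 13.9 and 10.1 and the POLR3A value was 1.86. Weak POLR3A scores thus accompanied PR scores of widely different size, with a match in the stretch and without one.

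Over all promoter windows, 428 windows of 379 genes met 324 of the P4-alone regions, and 149 windows held a PR summit. Motifs were read on both strands. In the windows with a summit, the palindrome with at most 1 change was found in 37 of 149, or 24.8% (18.6 to 32.3). Of all 34961 promoters 8.15% held it, as did 16.4% of the 2640 windows with a summit of any PR P4 region and 23.9% of the 896 with a steady one. Among steady summits the share was 33.2% (28.0 to 38.9) of 280 windows without POLR3A, 18.4% (14.7 to 22.9) of 342 with POLR3A in both lists and 16.8% (11.3 to 24.3) of 125 with it under vehicle alone. The exact palindrome was in 0 of the 149, which allows a share of up to 2.51%, against 5.00% (3.00 to 8.22) for steady regions without POLR3A and 0.392% of all promoters. It was in 1.46% (0.626 to 3.38) with POLR3A in both lists and 0.80% (0.141 to 4.39) under vehicle alone. All steady summits had 2.23% and all PR P4 summits 1.29%, both under the limit of 2.51%. The hexamer AGAACA was in 26 of the 149, 17.4% (12.2 to 24.3), with 14.8% of all promoters and 28.9% (23.9 to 34.5) for steady regions without POLR3A. Its share was 14.0% with POLR3A in both lists, 18.4% under vehicle alone and 19.9% for all steady summits. In each steady class with POLR3A, the shares of both motifs were thus below those of steady regions without POLR3A. Beside all promoters they lay on either side. Each motif was counted separately, and AGAACA can overlap the palindrome. The forkhead motif TGTTTAC was in 4 (all promoters 3.42%), the AP-1 motif TGANTCA in 10 (7.68%) and the GATA motif AGATAA in 13 (10.3%). The GC box GGGCGG, a site of Sp1 family factors, was in 74, 49.7% (41.7 to 57.6), beside 45% of all promoters, 50.5% for all PR P4 summits and 49.3% for all steady ones. It was 40.4% for steady regions without POLR3A, 55.3% with POLR3A in both lists and 52.8% under vehicle alone, so the P4-alone share was near that of PR summits in general. Neither the oestrogen receptor palindrome (GGTCA, any 3 bases and TGACC, 0.0572% of all promoters) nor the B box of tRNA genes (GGTTCGA, any 2 bases and CC, 0.186%) was found in the 149 windows. A match is a string of letters in a window and not a measured site.

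The PR regions with POLR3A under P4 alone covered nearly the whole range of PR scores. Their PR P4 −log10 q ran from 1.34 to 488, with quartiles of 5.93, 19.0 and 85.3, and the middle one stood at percentile 82.6 of the PR P4 list. Fold enrichment in that list had quartiles of 3.44, 6.20 and 16.3. Among all PR P4 regions the median −log10 q was 4.87, and among steady regions without POLR3A it was 30.5 with quartiles of 11.4 and 65.8. The first quartile of the P4-alone regions was thus the lower and the third quartile the higher, while 38.9% of them and 42.1% of those without POLR3A stood in the top 10% of the list. Their PR vehicle partners had a median −log10 q of 6.95 and a median percentile of 56.8 in their own list. Across the 4551 regions the PR scores of both treatments ranked alike, with a Spearman rho of 0.815, but the partners overlap by rule and share their local chromatin.

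The strongest PR region of the set lay outside genes on chromosome 10 (29106163 to 29107082), with LYZL1, a lysozyme-like gene, 182568 bp away. It had PR −log10 q of 488 under P4 (fold 68.6) and 374 under vehicle (fold 59.5), and a POLR3A value of 7.87 under P4 (fold 5.16). Its PR summits of both treatments were 23 bp apart, the POLR3A summit lay 17 bp from the P4 summit, and the nearest POLR3A vehicle region was 428548 bp away. The next lay 36326 bp from PPM1K, a mitochondrial phosphatase of branched-chain amino acid breakdown, on chromosome 4 (88320609 to 88321158), with PR values of 475 and 234. It had the same POLR3A score of 7.87 as the region near LYZL1, with no POLR3A vehicle region within 194860 bp. Inside CCNY, which encodes cyclin Y, a region on chromosome 10 (35495352 to 35496498) scored 473 and 438 for PR and 13.3 for POLR3A. A POLR3A vehicle region was 2914 bp from it. A region 2749 bp from the zinc finger gene ZNF282 on chromosome 7 (149228711 to 149229589) reached 466 and 288 for PR, with POLR3A at 4.95. The fifth, 1585 bp from ADISSP on chromosome 20 (3768819 to 3770687), stood at 461 and 200 for PR and 7.50 for POLR3A. All 5 PR regions lay above percentile 99.9 of the PR P4 list, and their POLR3A partners between percentiles 79.9 and 96.4 of the POLR3A P4 list.

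POLR3A scores at these regions were low and close to the level of the list. The −log10 q of the POLR3A P4 partners had quartiles of 2.66, 3.66 and 4.95, with a median fold of 3.36, and the median partner lay at percentile 58.0 of the POLR3A P4 list. The whole list had a median of 3.22 and a fold of 3.28. At steady regions with POLR3A in both lists, the median POLR3A P4 −log10 q was 5.88 and the median percentile 85.8. A −log10 q of at least 5 was reached by 23.9% (22.7 to 25.1) of the P4-alone regions and of at least 10 by 158, or 3.47%. Scores stood in steps, since 132 regions shared a fold of 3.59 with a −log10 q of 3.17 and 131 shared 3.36 with 2.66. The 4551 regions had 1881 different pairs of fold and score. The absence of POLR3A from the vehicle list is the absence of a call, and values this near the call threshold cannot be read as a measured gain.

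The −log10 q of POLR3A had no order by that of PR, while its fold went up slightly. With the 4551 regions divided into 4 groups of equal size by PR P4 −log10 q, the median PR value was 3.96, 9.49, 41.5 and 182. The median POLR3A P4 value in the same groups was 3.57, 3.82, 3.28 and 3.72, and the median POLR3A fold was 3.23, 3.27, 3.36 and 3.58. Spearman's rho between both scores was 0.0098 over the 4551 regions, and 0.28 between the folds, which are points from the same libraries. At the 6218 regions with POLR3A in both lists rho was 0.18.

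**Figure D1:**
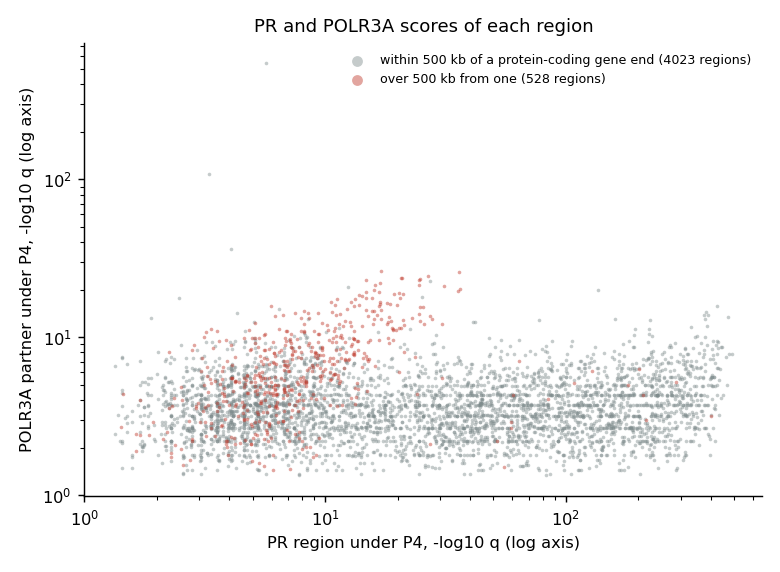
Each point is 1 of the 4551 regions, placed by the authors' −log10 q of the PR region under P4 and of its strongest POLR3A partner under P4, both on log axes. The 4023 regions with a coding gene end no farther than 500 kb (grey) have a median PR value of 27.7 and POLR3A value of 3.43, with 43 regions at a POLR3A value of 10 or more, and the 528 regions farther away (red) have medians of 7.24 and 6.03, with 115 at 10 or more.

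Among the highest POLR3A partners, some lay beside regions that POLR3A also held under vehicle. The highest, −log10 q 543, belonged to a PR region on chromosome 17 (68020340 to 68020665), 15177 bp from the importin gene KPNA2, with weak PR scores of 5.70 and 3.60. That POLR3A region (68019470 to 68020415) reached the arginine tRNA gene TRR-CCG2-1, and a POLR3A vehicle region lay 111 bp from the PR region. It was the only one of the 4551 whose POLR3A partner came within 100 bp of any of 429 tRNA genes, 20 other Pol III genes or 17 5S ribosomal RNA genes. Another, with −log10 q 36.0, was inside CDK5RAP2, a centrosome gene, on chromosome 9 (120579642 to 120580005), and 71 bp from a POLR3A vehicle region. The POLR3A summit lay 634 bp from the PR summit in the first of these and 594 bp in the other. The 7 next highest, with −log10 q of up to 26.4, all lay 852603 bp or more from the nearest gene end on chromosomes 1, 2, 11 and 13, with POLR3A summits 4 to 51 bp from the PR summit. The lowest partners, −log10 q 1.33 to 1.35, were near BLK, a kinase of B cells, 97835 bp from RPL22L1, a ribosomal protein gene, and inside RABGEF1, a RAB5 exchange factor. The region near BLK had a PR P4 value of 82.7, so a POLR3A call at the very edge of its list went with a strong PR region.

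Pol III genes themselves were almost closed to these regions by the rule, which removes PR regions that meet POLR3A under vehicle. With 100 bp allowed on either side, POLR3A vehicle regions met 353 of the 429 tRNA genes, 19 of the 20 other Pol III genes and all 17 5S genes. POLR3A P4 regions met 351, 19 and 17, of which 12 tRNA genes and none of the others lacked a vehicle region. No P4-alone region lay at any of these genes, and nothing is read from that count.

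The edge of the rule ran through pairs of neighbouring regions. Just inside it, a PR region 388 bp from NAT10, an RNA acetyltransferase gene, had a POLR3A vehicle region 3 bp away, with PR −log10 q of 3.61 and 10.9 and POLR3A P4 of 7.33. A region 280 bp from EIF2S2, which encodes the beta subunit of initiation factor eIF2, also lay 3 bp from one, with PR values of 6.65 and 6.10 and a POLR3A value of 3.82. One near KDM2A, a histone demethylase gene, lay 4 bp from one. Just outside, a region near WFIKKN2 was overlapped by 1 bp of a POLR3A vehicle region of −log10 q 3.14, and regions near HELLS and HPCAL1 by 3 bp each, of 3.20 and 3.35. Of the 4551 regions, 220 (4.83%) had a PR vehicle or POLR3A P4 partner that itself overlapped a POLR3A vehicle region outside the PR P4 region. The median gap of the 4551 regions to the nearest POLR3A vehicle region was 4595 bp, and 1152 of them, 25.3%, had one within 1 kb. Among steady regions without POLR3A in either list 9.15% had one within 1 kb, with a median gap of 23646 bp. Where PR and POLR3A were both found under P4 alone, 24.5% had one within 1 kb and the median gap was 4692 bp, close to the values of the P4-alone regions.

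The balance of the POLR3A states changed along the PR list. In the lowest 25% of the PR P4 list, 312 of 1590 steady regions had POLR3A under P4 alone and 224 under vehicle alone, 1.39 to 1. From percentile 75 to 90 the counts were 908 and 396, and from 95 to 99 they were 844 and 220. In the top 1% they were 315 and 48, 6.56 to 1, and the P4-alone state made up 28.2% (25.7 to 30.9) of the 1116 regions there. POLR3A in both lists was also more frequent there, at 41.4%, beside 21.6% of all steady regions. Regions without POLR3A made up 26.1% there, beside 55.9% of all steady regions. A higher share in the top 1% was thus not particular to the P4-alone state. The P4-alone share itself was lowest at percentiles 75 to 90, 10.9% (10.2 to 11.6), and 19.6% (17.7 to 21.6) in the lowest 25%. Among PR regions found under P4 alone, 9049 of 82732, or 10.9%, had POLR3A under P4 alone.

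The lists differ in length, 47904 POLR3A regions under P4 and 29161 under vehicle, and with POLR3A lists of equal length the ratios were 0.630 in the lowest 25% and 3.04 in the top 1%. That setting puts vehicle-alone regions ahead below percentile 50, at 0.821 from 25 to 50, and leaves P4-alone regions ahead above it. Strong PR regions were also wider, from a median of 300 bp in the lowest 25% to 923 bp in the top 1%. Counting POLR3A only within 100 bp of the PR summit, a window of fixed width, gave 1.13 and 6.00. Ranked by the PR vehicle list in place of the P4 list, the ratio was 1.97 in the lowest 25%, 5.47 from percentile 95 to 99 and 5.14 in the top 1%. The part of chromatin openness or of PR signal carried into the POLR3A libraries was not tested.

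**Figure D2:**
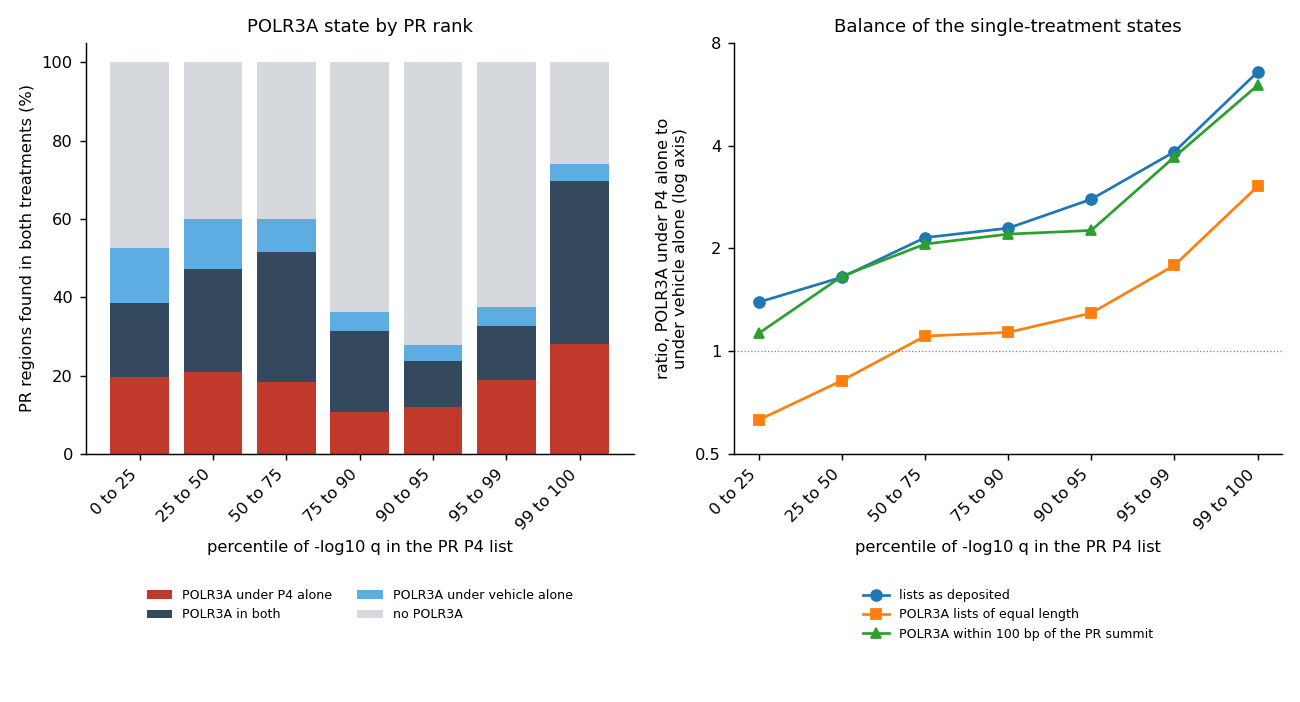
Left, the share of steady PR regions in each POLR3A state (stacked bars, %) by percentile of −log10 q in the PR P4 list. Right, the number with POLR3A under P4 alone per region with POLR3A under vehicle alone on a log axis, for the deposited lists, for POLR3A lists of equal length and for POLR3A counted within 100 bp of the PR summit; the ratio is highest in the top 1% in each, at 6.56, 3.04 and 6.00.

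The PR P4 and PR vehicle summits of the P4-alone regions were a median of 34 bp apart, and 61.9% (60.5 to 63.3) were within 50 bp. In steady regions without POLR3A the median was 26 bp, and 72.0% (71.3 to 72.7) were within 50 bp. From the weakest to the strongest of the 4 PR groups of P4-alone regions, the distance between PR summits was 114, 49, 27 and 13 bp. The PR and POLR3A summits under P4 were a median of 119 bp apart, with quartiles of 41 and 287 bp, and 45.6% were within 100 bp. In the 4 groups that distance was 112, 77, 168 and 113 bp, with no order by PR strength. Regions with POLR3A in both lists had a median PR to POLR3A distance of 79 bp, and regions where both PR and POLR3A were found under P4 alone had 114 bp. The POLR3A summit fell inside the PR region in 83.2% of the P4-alone regions, which had a median width of 548 bp.

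**Figure D3:**
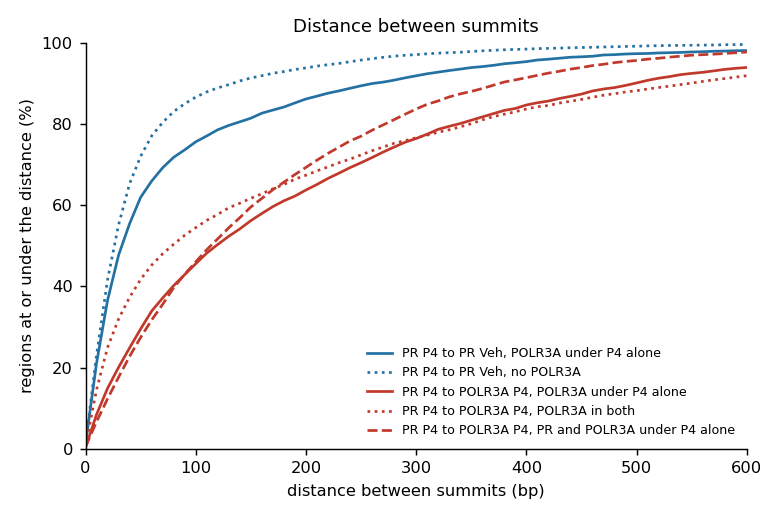
Cumulative share of regions (%) by the distance between summits in bp: PR P4 to PR vehicle (blue) for steady regions with POLR3A under P4 alone and with no POLR3A, and PR P4 to POLR3A P4 (red) for steady regions with POLR3A under P4 alone, with POLR3A in both, and for regions with both factors under P4 alone. In the P4-alone regions 61.9% have the PR summits within 50 bp of each other, beside 72.0% of steady regions with no POLR3A. The POLR3A summit is within 100 bp in 45.6% of the P4-alone regions.

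Against genes, the P4-alone regions lay between the steady regions without POLR3A and those with POLR3A in both lists. A coding gene end lay within 1 kb of 754 of the 4551, 16.6% (15.5 to 17.7), beside 12.7% of all PR P4 regions and 14.2% of steady ones. The share was 8.37% (7.95 to 8.81) for steady regions without POLR3A, 24.3% (23.3 to 25.4) with POLR3A in both and 24.8% (22.9 to 26.7) with POLR3A under vehicle alone. A further 39.2% lay in a protein-coding gene more than 1 kb from its ends, and 44.3% outside genes. In all, 49.8% (48.3 to 51.2) met a protein-coding gene span, beside 53.9% of all PR P4 regions. The gene table gives no strand, so an end can be the start or the finish of a gene.

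Weak PR regions lay within 1 kb of a gene end more often. From the weakest to the strongest of the 4 PR groups, the share within 1 kb of an end was 23.7%, 17.0%, 15.4% and 10.1%. The median distance to an end had no such order, at 10.6, 27.0, 15.5 and 17.9 kb. The order of the classes held at like PR scores. At a PR P4 −log10 q under 5 the share was 24.9% (22.1 to 27.8) for P4-alone regions and 16.4% (14.8 to 18.2) without POLR3A. At 100 and over it was 9.80% (8.13 to 11.8) and 6.48% (5.55 to 7.56), so the intervals did not meet at either end of the range. Regions with POLR3A in both lists were at 35.8% and 16.0% in the same ranges.

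**Figure D4:**
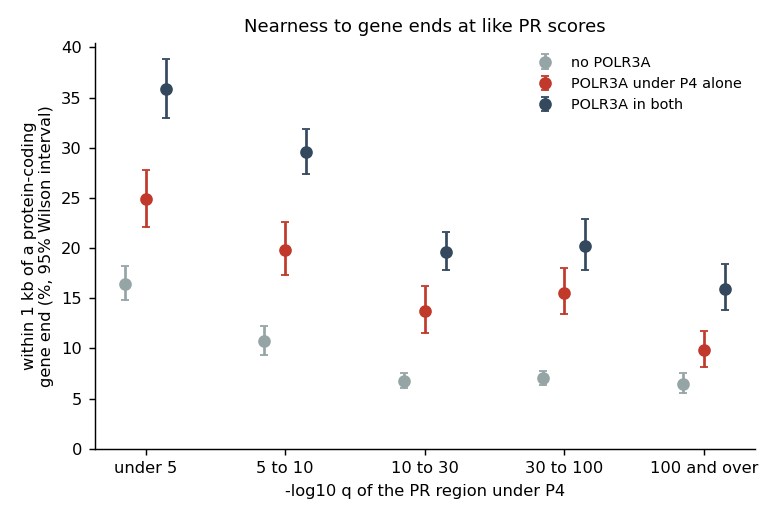
Share of steady PR regions with a coding gene end inside 1 kb (%, points with 95% Wilson intervals) by −log10 q of the PR region under P4, for regions without POLR3A, with POLR3A under P4 alone and with POLR3A in both lists. In each of the 5 ranges the P4-alone regions lie between the others, from 24.9% under 5 to 9.80% at 100 and over.

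More than 500 kb from any protein-coding gene end were 528 of the 4551 regions, 11.6% (10.7 to 12.6), beside 5.22% of all PR P4 regions and 9.67% of all steady ones. The share was 4.37% for steady regions without POLR3A, 10.3% (8.97 to 11.7) with POLR3A under vehicle alone and 21.8% with POLR3A in both. Chromosome 11 held 111 of them, chromosome 1 held 67 and chromosome 20 held 46. Their median PR P4 −log10 q was 7.24 with a fold of 3.00, and that of the other 4023 was 27.7 with 7.87. Their POLR3A score was the higher, 6.03 against 3.43, though the POLR3A fold was 3.01 against 3.36. The PR and POLR3A summits were a median of 22 bp apart in the far regions and 143 bp in the others. Of the 158 regions with a POLR3A −log10 q of at least 10, 115 were far from genes. One of them, on chromosome 1 (122981149 to 122981356), had −log10 q of 26.8 for PR under P4 and 24.5 for POLR3A. Repeated sequence there and its effect on read placement were not tested.

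Genes known to respond to progestins were well represented near these regions, as they were near steady PR regions of any kind. Of 28 listed PR targets, 16 (57.1%) had a P4-alone region in the gene or within 50 kb and 27 (96.4%) had a steady region. Over all 19821 protein-coding genes these shares were 27.5% and 69.4%, and 10.2% had a P4-alone region in the span or within 1 kb of it, as had 11 of the 28 targets. Gene length and PR density were not matched in this count. GREB1, a coregulator of oestrogen receptor, held 5 of the regions. The strongest (chromosome 2, 11571135 to 11571614) had PR −log10 q of 277 under P4 and 118 under vehicle and a POLR3A value of 4.31. The next (11488135 to 11488759) had 185, 48.2 and 2.66. FKBP5, an immunophilin that binds receptor chaperone complexes, held 3, of which the strongest (chromosome 6, 35723316 to 35724419) had 71.7, 15.9 and 3.74. All 3 had POLR3A scores between 3.72 and 3.74, whereas their PR P4 scores ran from 8.45 to 71.7. ZBTB16, a zinc finger repressor, held 2, with PR P4 values of 160.5 and 3.18 and POLR3A values of 4.14 and 3.47. EGFR, the epidermal growth factor receptor, held 4, with PR P4 values of 56.5, 6.83, 3.55 and 1.95 and POLR3A values of 1.82, 6.75, 3.68 and 2.27. At CCND1, which encodes cyclin D1, a region at one end of the gene span (chromosome 11, 69654241 to 69655109) scored 13.7 and 5.75 for PR and 4.43 for POLR3A. STAT5A, PGR, TAT, PDK4, DUSP1 and CDKN1A were the other targets with a region in the span or within 1 kb. The region in STAT5A, a transcription factor of prolactin signalling, had PR values of 378 and 296 with a POLR3A value of 2.66. That at one end of the span of PGR, the gene of PR itself (chromosome 11, 101128700 to 101129867), had 209, 35.8 and 4.43. DUSP1, a phosphatase of MAP kinases, had the highest POLR3A score of these targets, 11.2, with PR values of 22.5 and 4.90.

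Luminal transcription factors and keratins had such a region within 50 kb of 11 of 18 genes (61.1%). For this list and those below, the share over all protein-coding genes is 27.5%, and gene length and PR density were not matched. GRHL2, an epithelial factor, held 8 of the 23 steady regions in its span on chromosome 8, with PR P4 values from 3.94 to 357 and POLR3A values from 2.02 to 7.95. Of these, 2 neighbouring regions met the same PR vehicle region. GATA3, the luminal lineage factor, held 3, with PR P4 values of 80.3, 29.6 and 2.63 and POLR3A values of 2.57, 2.02 and 2.94. EHF, an ETS factor, held 2 (51.2 and 21.4, with POLR3A of 4.67 and 1.97). KRT8 and KRT18, neighbouring genes of the luminal keratin pair, shared a region inside the KRT8 span and within 1 kb of KRT18 (chromosome 12, 52947844 to 52948743). It had PR values of 4.64 and 5.20 and a POLR3A value of 9.51. RARA, a retinoic acid receptor, held 2, and SPDEF, an ETS factor of secretory epithelium, held 1 with PR values of 41.1 and 4.77 and a POLR3A value of 4.31.

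Growth factor signalling genes had a region within 50 kb of 17 of 29 (58.6%). IGF1R, the receptor of insulin-like growth factor, held 7 of the 31 steady regions in its span. The strongest (chromosome 15, 98865506 to 98866436) scored 374 and 143 for PR and 7.87 for POLR3A. The other 6 had lower POLR3A values. PRLR, the prolactin receptor, held 5, in which the 3 weakest PR regions had the 3 highest POLR3A scores, since the PR P4 values of 126, 45.3, 11.1, 4.76 and 4.70 went with POLR3A values of 2.08, 3.20, 6.29, 7.77 and 4.89. At FGFR1 the stronger PR region of 170 had POLR3A of 4.17 and the weaker of 5.16 had 8.00. At GRB2, an adaptor of receptor kinases, a region beside the gene (PR 310 and 125) had a POLR3A value of 1.74.

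Among 25 nuclear receptors, 10 had a region within 50 kb. NR4A1, an orphan receptor induced early by many signals, held 3, of which the strongest had PR values of 204 and 20.2 and a POLR3A value of 2.51. VDR, the vitamin D receptor, held 2, with PR P4 values of 338 and 35.7 and POLR3A values of 8.48 and 3.34. PPARD, a receptor for fatty acids, held 2, with PR P4 values of 28.8 and 9.55 and POLR3A values of 4.31 and 5.71. Of 24 adhesion and cytoskeleton genes, 17 (70.8%) had a region within 50 kb. CTNND1, which encodes p120 catenin, held 4, with PR P4 values of 346, 141, 16.6 and 3.87 and POLR3A values of 6.48, 1.93, 2.91 and 4.22. PXN, which encodes paxillin of focal adhesions, held 2. Of 18 AP-1 family genes 9 had one, and ATF7 held 4. Of 20 coregulators and chaperones 10 had one, of 20 lipid and glucose genes 8 and of 20 cell cycle genes 7. CPT1A, the carrier step of fatty acid oxidation, and PFKFB3, a regulator of glycolysis, held 2 each. CDK2 held 1, with PR values of 7.03 and 3.04 and a POLR3A value of 4.50. Clock genes had 4 of 17 (23.5%), under the share over all genes. BHLHE40, a clock repressor, held 3 weak PR regions of 10.1, 6.71 and 4.76. Of these, 2 met the same POLR3A region, as did both regions in PER2.

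Genes of the Pol III machinery were also examined. Of 35 such genes, 13 (37.1%) had a P4-alone region within 50 kb and 29 had a steady region. In the span or within 1 kb were 6: BRF1, BRF2, POLR3C, CRCP, GTF3C5 and SNAPC1. At BRF2, the TFIIIB subunit of U6 type promoters, the region (chromosome 8, 37848271 to 37849302) scored 6.54 and 4.89 for PR and 7.63 for POLR3A. POLR3C, a subunit of the polymerase, had PR values of 5.28 and 3.79 and POLR3A of 2.21. CRCP, GTF3C5 and SNAPC1 had PR P4 values of 4.59, 4.70 and 2.79 and POLR3A values of 2.15, 2.07 and 3.87. All 6 PR regions were under −log10 q 14, below the median of 19.0 over the 4551.

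**Figure D5:**
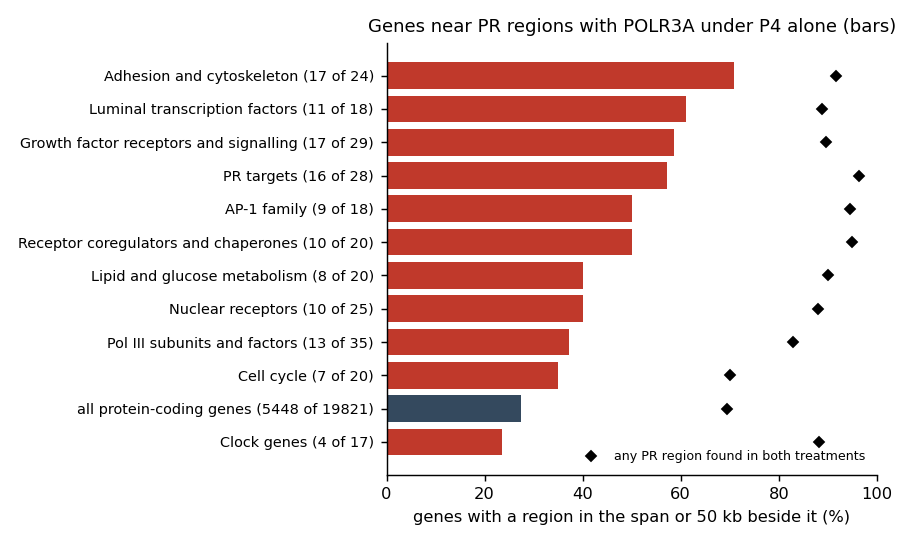
Share of the genes of each list with a P4-alone region in the span or within 50 kb (bars, %, with counts in the labels) and with any steady PR region (diamonds). Every list but the clock genes (23.5%) lies above the 27.5% of all protein-coding genes, and the diamonds lie at 70% or above in every list, beside 69.4% over all genes. Gene length was not matched: its median runs from 11.7 kb (cell cycle) to 89.2 kb (growth factor signalling), beside 24.5 kb over all genes.

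KCNMA1, a calcium-activated potassium channel gene of 768 kb on chromosome 10, held the most P4-alone regions, 18 among its 60 steady ones. ZMIZ1, a coactivator of androgen receptor, held 11 of 24 (45.8%), and ANKRD11, a chromatin regulator, 9 of 29 (31.0%). DIP2C held 9 of 16 (56.2%), and GSE1, a subunit of a histone deacetylase complex, 9 of 89 (10.1%). AUTS2, DLG5, GRIK4, IGF1R, LARP1, SLC24A3 and TBCD held 7 each. Of the protein-coding genes with a region in the span, 1690 had at least 1, 391 at least 2 and 36 at least 5. Another P4-alone region lay within 10 kb of 27.4% of the regions, and the median distance to the next was 36.8 kb.

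The share of steady regions in the P4-alone state differed along the genome. It was highest on chromosome 20, 23.9% (21.7 to 26.4), and on chromosome 11, 20.6% (19.0 to 22.4). It was lowest on chromosome 21, 8.02% (5.85 to 10.9), and on X, 8.92% (6.77 to 11.7), beside 15.8% over all. Regions over 500 kb from a coding gene end were 46 of the 305 P4-alone regions on chromosome 20 and 111 of the 465 on chromosome 11, beside 528 of all 4551. Their part in these shares and the copy number of these chromosomes in T47D were not tested.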

How the data were processed

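Peak lists of PR and POLR3A ChIP-seq, 1 for each of the 4 groups, were analysed. The submitters' processing notes name cutadapt, Bowtie2, MACS2 and hg38, with no role, order or version. How the 3 replicates and the inputs entered a list is not given in the sources used here. The deposited values of each region are a fold enrichment (a ratio), −log10 p- and q-values and a score made by the authors, and the highest q-value was 0.0497. Fold and −log10 q were used, only within a list. Depth is unknown, so its effect on list length could not be corrected.

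Overlaps of 1 bp or more, gaps and summit distances were computed with numpy 2.4.6 and pandas 2.3.3. A region's partner was the overlapping region with the highest −log10 q. The overlap code was tested on simulated data, and bedtools 2.31.1 also gave 4551 regions. Genes (19821 protein-coding) and promoters (34961 windows) came from RefSeq tables of GRCh38.p14. No reference genome was used, so sequence outside promoters was not searched.

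The regions, gene lists, motifs and alternatives were chosen with earlier results of these data known. Named regions were the 5 with the highest PR P4 −log10 q, the 10 with the highest and 3 with the lowest POLR3A score, and the 3 on either side of the rule's edge. Named genes were those nearest to these, the genes holding most regions, and the 30 listed genes with most regions in the span or within 1 kb. Printed promoter stretches, further PR target and Pol III genes and micro RNA genes were chosen after their values were seen. Some items that these rules name are not reported here. Alternatives were stricter thresholds, a reciprocal overlap of 50%, wider margins, lists of equal length and fold as the rank.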

Additional observations from a re-analysis of the deposited data

Results flagged for a closer look

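Outside chromosomes 1 to 22 and X, 32 PR P4 regions on unplaced and unlocalised sequences met the same overlaps, of 947 PR P4 regions and 505 steady ones there. They stand out as signal in data that the report does not use.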

How the results depend on the processing

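No paired analysis was possible because each list holds no value per replicate, and for the same reason no replicate could be left out. Of 73 values under other settings, 22 stayed within the counting interval or 1.5 times the count, and 51 moved. Values are given in the order number of regions, share within 1 kb of a gene end, share in a gene span, median PR P4 percentile, median POLR3A percentile, median PR to POLR3A summit distance and genes within 50 kb, which as reported are 4551, 16.6%, 49.8%, 82.6, 58.0, 119 bp and 5448. Under −log10 q thresholds and with lists of equal length, the percentiles are ranks within the shortened lists. They cannot be set against 82.6 and 58.0, since in the full PR P4 list a −log10 q of 10.1 already stands at percentile 72.8. Some of the 51 values that moved are such percentiles. With −log10 q of at least 5 in all lists they were 1279, 12.3%, 45.6%, 84.8, 48.3, 61 bp and 1659. With at least 10 they were 284, 7.39%, 24.6%, 46.4, 31.4, 19 bp and 283. With at least 5 only where a region must be present, they were 705, 7.09%, 38.7%, 81.4, 49.2, 41 bp and 802. With 50% reciprocal overlap they were 1510, 12.8%, 38.3%, 75.5, 67.2, 52 bp and 1984. With all lists of equal length they were 1757, 12.5%, 53.6%, 78.2, 54.1, 110 bp and 2602. With POLR3A lists of equal length (29161 regions), the POLR3A percentile was 54.1 and the distance 101 bp. With no POLR3A vehicle region within 500 bp, the gene-end share was 13.4% and the PR percentile 85.4, and with none at either partner the gene-end share was 15.4%. Without regions over 500 kb from a gene end, added after seeing the data, the shares were 18.7% and 56.3%, the percentiles 86.9 and 54.6 and the distance 143 bp. By fold, the PR percentile was 81.1. At 5 kb the gene-end share was 31.0%, and at 10 kb 2913 genes had a region. The ratio of P4-alone to vehicle-alone regions, as reported 6.56 in the top 1% and 1.39 in the lowest 25%, was 3.04 and 0.630 with POLR3A lists of equal length, and 1.13 in the lowest 25% within 100 bp of the summit. The last 3 values come from settings added after seeing the data. The cause of these shifts was not tested, beyond the fewer regions that each stricter setting leaves and the shortened lists in which percentiles were ranked. Without depth or replicates, the absence of a POLR3A vehicle call cannot be told from a region just under its threshold.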

Other observations

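The P4-alone regions also met 7 of 1911 micro RNA genes, which is 0.154% (0.0745 to 0.317) of the 4551 regions, beside 0.167% (0.126 to 0.221) of all steady regions and 0.0977% (0.0810 to 0.118) of all PR P4 regions, so the share is near that of steady regions. MIR2117 on chromosome 17 (43444806 to 43444885) lay in a region with PR −log10 q of 391 under P4 and 166 under vehicle and a POLR3A value of 13.9 under P4. MIR3678 on the same chromosome had PR values of 310 and 125 and a POLR3A value of 1.74, in the region beside GRB2. MIR378H on chromosome 5 had PR values of 131 and 41.5 and POLR3A of 2.42, and MIR4429, inside GREB1, had 49.4, 8.92 and 2.66. MIR148A on chromosome 7 had PR values of 21.4 and 2.90 and a POLR3A value of 1.82. The other two were MIR4472-2, with POLR3A of 5.38, and MIR4496, with 1.73. A PR region over a micro RNA gene is a position and says nothing of its transcription.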
